A study of Mus musculus with 32 samples.

Results

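Angptl2, Angptl4 and Angptl6 encode secreted angiopoietin-like proteins. The 3 genes were taken by symbol from the 55471 genes of the count table, and all 3 were among the 14456 genes with enough reads to be tested. Angiopoietin-like proteins carry a coiled-coil part and a fibrinogen-like part and circulate in blood. ANGPTL4 is the member of this trio best known as a lipase inhibitor. It unfolds lipoprotein lipase, the enzyme that splits triglyceride from circulating lipoproteins, and its gene is induced by fasting, by fatty acids through the PPAR receptors, by glucocorticoids and by low oxygen. ANGPTL2 is known mainly as an inflammatory adipokine that signals through integrins and through the immune receptor PirB in mice. ANGPTL6, also called angiopoietin-related growth factor, is a liver-derived protein that opposes weight gain and insulin resistance in mice. Neither ANGPTL2 nor ANGPTL6 is an established lipase inhibitor, and no lipase activity was measured here.

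Polyadenylated liver RNA came from 32 male C3H/HeNCrl mice, all fed a high fat diet (HFD). The mice were kept in short light (SL) or long light (LL), and livers were taken at zeitgeber time (ZT, hours on the light schedule) 0, 6, 12 and 18, with 4 mice in each of the 8 groups. The groups, in this order below, were SL at ZT0, SL at ZT6, SL at ZT12 and SL at ZT18, and the same times in LL. All carried the same strain, sex and diet, so no group on another diet is at hand. The sources used here do not give their age, the daily hours of light or the event at ZT0. Each library came from 1 mouse, and the spread that p-values rest on is that between mice.

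Libraries held 9095615 to 27462776 gene-assigned reads. Mean correlation of log2 CPM (CPM, read counts scaled to a common library size by trimmed mean of M values) with group mates was at least 0.981, apart from LL ZT12 replicate 3 at 0.969. All 8 hepatocyte markers were detected in every library, with Alb, the gene of serum albumin, at a mean of 92195 CPM. The 5 defining adipocyte markers Adipoq, Plin1, Lep, Cfd and Retn stayed at or below 0.569 CPM in every library and were at 0 in 11 to 26 of the 32 libraries. Of the other 3 markers on that list, none was at 0 in any library, with means of 4.79 CPM for Plin4, 7.43 CPM for Fabp4 and 5295 CPM for Car3. In whole liver, fewer cells of a type and less RNA per cell cannot be told apart.

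On GRCm38 with GENCODE M21, Angptl2 (ENSMUSG00000004105) lies at chr2:33216069-33247717 on the plus strand, with 6286 bases of exon. It lies wholly within the bounds of Ralgps1 on the opposite strand, with 0 bases of shared exon. Angptl4 (ENSMUSG00000002289) lies at chr17:33773750-33781830 on the minus strand, with 3541 bases of exon, and no other annotated gene overlaps it. Angptl6 (ENSMUSG00000038742) lies at chr9:20873808-20879727 on the minus strand, with 1582 bases of exon. Its bounds overlap those of Shfl, an antiviral gene on the opposite strand, by 500 bases, of which 265 are exon in both. The kit marks strand, but the sources used here do not give the strand setting of the counting, so reads in that overlap cannot be assigned with certainty.

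The promoters of a gene that changed with time of day and of one that did not pass that test are shown for comparison, each as the 250 bases before the RefSeq start on GRCm38.p6, read 5′ to 3′ on the gene's strand. Capitals mark matches to the searched motifs, here as the reverse complements CCGCCC of GGGCGG and CGTCA of TGACG.
Angptl2, chr2:33215711-33215960, plus strand: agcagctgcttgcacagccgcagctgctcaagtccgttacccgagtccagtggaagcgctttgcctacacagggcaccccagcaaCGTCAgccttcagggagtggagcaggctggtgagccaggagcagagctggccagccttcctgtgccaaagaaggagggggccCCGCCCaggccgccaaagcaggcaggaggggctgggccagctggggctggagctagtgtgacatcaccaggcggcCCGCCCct
Angptl6, chr9:20879711-20879960, minus strand: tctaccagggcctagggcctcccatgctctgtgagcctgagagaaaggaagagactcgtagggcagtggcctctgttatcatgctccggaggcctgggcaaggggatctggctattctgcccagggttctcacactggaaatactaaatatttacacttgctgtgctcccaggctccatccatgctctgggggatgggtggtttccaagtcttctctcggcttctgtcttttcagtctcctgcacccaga
The RefSeq promoter table held 2 of the 3 genes, and Angptl4 is named only. The Angptl2 window is 66.8% G or C and the Angptl6 window 54.8%. In the Angptl2 window the GC box GGGCGG matched at 83 and at 8 bases before the start, and TGACG, the core of a cAMP response element, matched at 165 bases. Both strands were searched, and these motifs occur in 32.7% and 17.8% of 32851 promoter windows of this length. No match to the E-box CACGTG (6.02% of windows), the D-boxes TTATGTAA (0.819%) and TTATGCAA (0.694%), the nuclear receptor site AGGTCA (14%), its direct repeat spaced by 1 base (the PPAR element, 0.0335%), the glucocorticoid site AGAACA (16.1%), the hypoxia core ACGTG (16.6%), CCAAT (33.8%) or TATAAA (12.4%) was found in either window. The E-box contains the hypoxia core, and the repeat contains AGGTCA. A match describes letters and not a bound site.

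Per exon length Angptl4 was the most abundant of the 3 in both photoperiods. Its mean level over the 4 times was 20.5 RPKM (CPM per kilobase of exon) in SL and 19.6 RPKM in LL. Angptl6 had a mean level of 5.31 RPKM in SL and 5.39 RPKM in LL. Angptl2 had a mean level of 2.44 RPKM in SL and 2.10 RPKM in LL. All levels below are CPM and compare 1 gene across groups.

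**Figure D1:**
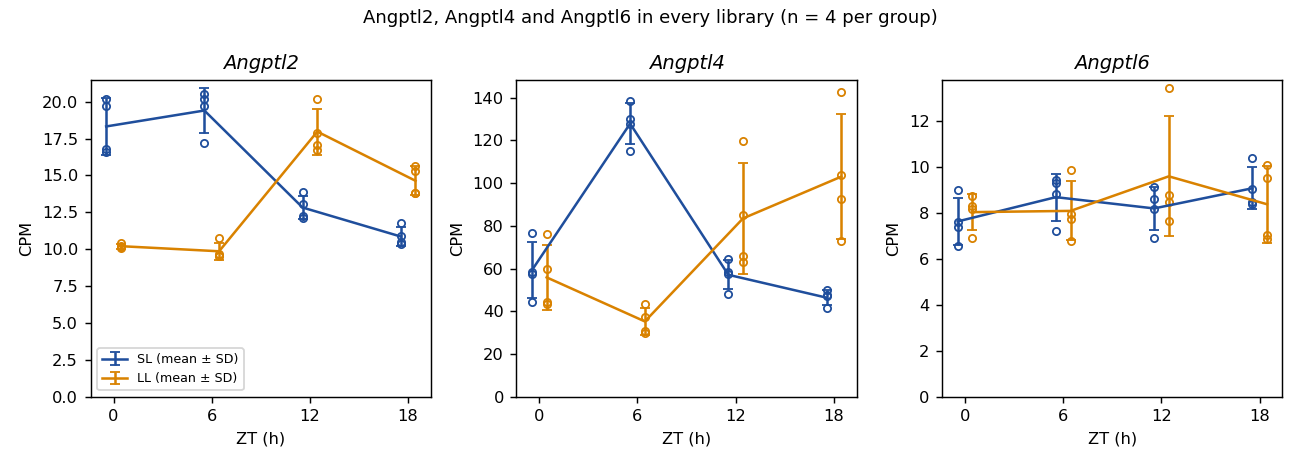
CPM (y axis, linear, from 0) against ZT in hours (x axis) for Angptl2, Angptl4 and Angptl6, 4 livers per group as circles, lines and bars giving mean and SD. Angptl2 and Angptl4 in SL were highest at ZT6, at 19.4 and 128 CPM, while in LL they were lowest at that time, at 9.86 and 35.3 CPM, and Angptl6 lay between 6.55 and 13.4 CPM throughout.

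Angptl4, the lipase inhibitor, had 44.6, 76.4, 57.3 and 58.6 CPM in SL livers at ZT0, against 59.8, 43.4, 76.0 and 44.3 CPM in LL livers. At ZT6 it had 115, 139, 130 and 128 CPM in SL livers, against 37.2, 43.2, 30.9 and 29.8 CPM in LL livers. The photoperiods overlapped at ZT0, and at ZT6 every SL liver lay above every LL liver. At ZT12 Angptl4 had 58.2, 64.4, 48.0 and 57.7 CPM in SL livers, against 85.2, 63.2, 119 and 66.0 CPM in LL livers. At ZT18 it had 41.4, 49.7, 47.4 and 47.0 CPM in SL livers, against 73.0, 104, 143 and 92.6 CPM in LL livers. The groups overlapped at ZT12 through a single pair of the 16 possible SL and LL pairs, and at ZT18 every SL liver lay below every LL liver. Summed levels of 7 skeletal muscle markers at ZT18 were 0.735 to 32.1 CPM in SL livers, against 27.4, 60.1, 204 and 10.5 CPM in LL livers. LL replicate 3 was the highest of its group both for these and for Angptl4. LL ZT0 replicate 2, at 96.3 CPM of these markers, had the lowest Angptl4 of its group. Over the 32 libraries the log2 marker sum and log2 Angptl4 had a Pearson r of 0.01. With the sums of the other cell type lists r ran from -0.34 (Kupffer cell and macrophage markers) to 0.49 (hepatocyte markers). The part of muscle RNA in the result was not tested. Without LL ZT18 replicate 3 the ZT18 difference was -0.96 on the log2 scale, with an adjusted p of 0.00198.

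Angptl4 was 3.63-fold higher in SL than in LL at ZT6 (log2 difference 1.86 ± 0.20 SE, edgeR quasi-likelihood test with Benjamini-Hochberg adjusted p = 9.86e-08). At ZT18 it was lower in SL (log2 difference -1.15 ± 0.20, edgeR adjusted p = 0.000189). At ZT0 the log2 difference was 0.09 ± 0.20 (edgeR adjusted p = 0.852), with a 95% interval of -0.32 to 0.49. At ZT12 it was -0.55 ± 0.20 and missed the threshold (edgeR adjusted p = 0.0624), and it passed with DESeq2 at an adjusted p of 0.0439. Without LL ZT12 replicate 3, the highest liver of its group at 119 CPM, it was -0.32 with an adjusted p of 0.317. Higher at ZT6 and lower at ZT18, with both passing, was found for 475 tested genes (3.29%).

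Angptl2, the integrin ligand, had 16.6, 16.8, 20.2 and 19.7 CPM in SL livers at ZT0, against 10.1, 10.1, 10.2 and 10.4 CPM in LL livers. At ZT6 it had 20.5, 20.2, 17.2 and 19.7 CPM in SL livers, against 9.52, 10.7, 9.65 and 9.54 CPM in LL livers. At both times every SL liver lay above every LL liver. At ZT12 Angptl2 had 12.3, 13.1, 13.9 and 12.1 CPM in SL livers, against 20.2, 16.7, 17.1 and 17.9 CPM in LL livers. At ZT18 it had 11.8, 10.3, 10.9 and 10.5 CPM in SL livers, against 13.8, 13.8, 15.3 and 15.6 CPM in LL livers. At these later times every SL liver lay below every LL liver.

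Angptl2 was higher in SL at ZT0 by 0.84 ± 0.09 (log2, SE; edgeR adjusted p = 2.71e-08) and at ZT6 by 0.97 ± 0.08 (edgeR adjusted p = 1.27e-09), or 1.79-fold and 1.96-fold. It was lower in SL at ZT12, with a log2 difference of -0.48 ± 0.08 (edgeR adjusted p = 0.000109), and at ZT18, with -0.43 ± 0.08 (edgeR adjusted p = 0.000771). Of all tested genes, 248 (1.72%) passed at all 4 times, and 120 (0.83%) did so with this order of signs. Ralgps1, whose bounds enclose Angptl2, passed at no time, with log2 differences between -0.45 and 0.19.

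Angptl6, the angiopoietin-related growth factor, had 7.59, 6.55, 9.01 and 7.37 CPM in SL livers at ZT0, against 8.73, 8.31, 6.93 and 8.17 CPM in LL livers. At ZT6 it had 8.83, 9.43, 7.19 and 9.28 CPM in SL livers, against 7.96, 6.78, 7.75 and 9.86 CPM in LL livers. The ranges overlapped at both times. At ZT12 Angptl6 had 6.91, 9.12, 8.16 and 8.59 CPM in SL livers, against 8.80, 8.47, 13.4 and 7.65 CPM in LL livers. At ZT18 it had 8.48, 8.39, 9.04 and 10.4 CPM in SL livers, against 10.1, 7.03, 9.53 and 6.85 CPM in LL livers. The ranges overlapped again, and the highest value, 13.4 CPM, belonged to LL ZT12 replicate 3, the library least like its group mates.

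No difference between SL and LL in Angptl6 passed the threshold. The log2 differences were -0.08, 0.10, -0.23 and 0.11 in ZT order, each with an SE of 0.16, and the edgeR adjusted p lay between 0.381 and 0.840. The ZT12 difference was -0.01 without LL ZT12 replicate 3 (adjusted p = 0.985). The 95% intervals of the 4 differences lay within -0.55 and 0.43, so a larger change falls outside them. Angptl6 rested on 63 to 298 reads per library. Shfl, the overlapping gene, had a mean of 137 CPM and log2 differences of -1.01 and -0.89 at ZT0 and ZT6 and 0.99 and 0.46 at ZT12 and ZT18, all passing. Angptl6 did not share that order of signs.

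By count, 1 of the 3 genes passed at ZT0, where 11% of tested genes did (6.07% higher and 4.97% lower in SL), and 2 of 3 passed at ZT6, where 15.3% did. At ZT12 1 of 3 passed beside 12.4% of tested genes (6.05% higher and 6.4% lower in SL), and at ZT18 2 of 3 passed beside 9.21%. The interaction of photoperiod and ZT, which asks whether the SL to LL difference depends on the hour, passed for Angptl2 (edgeR adjusted p = 1.76e-12) and Angptl4 (5.79e-09) and not for Angptl6 (0.519). It passed for 32.7% of tested genes. The 4 times share 1 fit, so their calls are not independent.

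**Figure D2:**
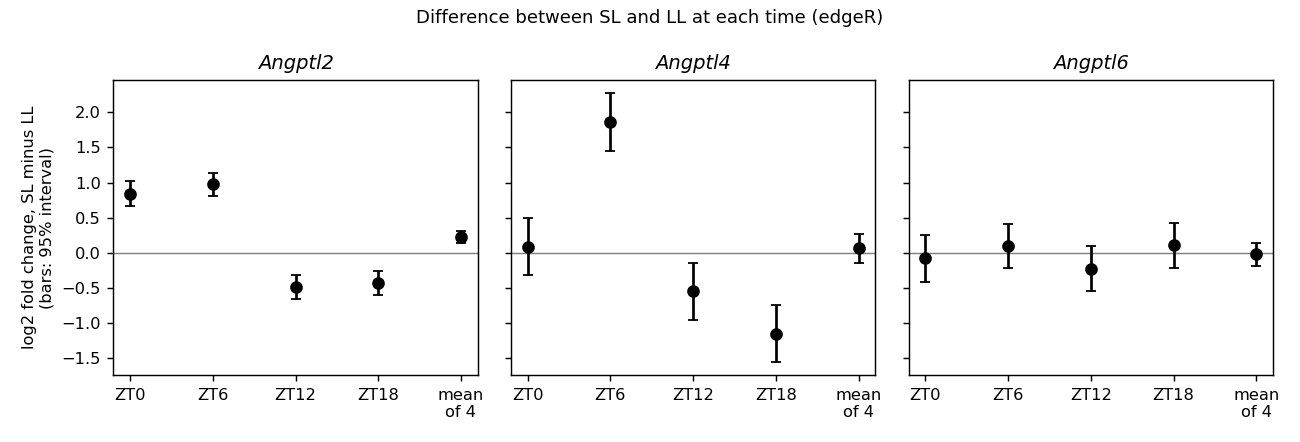
Log2 fold change of SL minus LL (y axis) for every ZT and for the mean over the 4 times (x axis) for each gene, points with 95% intervals from edgeR. Angptl2 and Angptl4 lie above 0 at ZT6 (0.97 and 1.86) and below 0 at ZT18 (-0.43 and -1.15), and every Angptl6 interval includes 0.

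Within a photoperiod, level depended on time of day for Angptl2 in SL (edgeR adjusted p = 4.84e-09) and LL (2.62e-09), where 19.1% and 18.3% of tested genes passed. It did so for Angptl4 in SL (edgeR adjusted p = 2.69e-06) and LL (4.95e-06). All 7 skeletal muscle markers passed time of day in LL too, with sums of 0.795 to 1.49 CPM at ZT12 and 10.5 to 204 CPM at ZT18, and their part in the Angptl4 change was not tested. For Angptl6 neither test passed (edgeR adjusted p = 0.685 for SL livers and 0.502 for LL livers). Both tests passed for 12.1% of tested genes.

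Angptl2 was highest in SL at ZT6 and lowest at ZT18, a 1.79-fold range of group means, and in LL highest at ZT12 and lowest at ZT6, a 1.82-fold range. Ordered over the 8 groups, SL at ZT6 (19.4 ± 1.5 CPM, SD), SL at ZT0 (18.3 ± 1.92) and LL at ZT12 (18.0 ± 1.55) came first, with overlapping ranges. LL at ZT18 (14.6 ± 0.970) and SL at ZT12 (12.8 ± 0.809) came next, overlapping each other but neither the group above nor the one below. SL at ZT18 (10.9 ± 0.640), LL at ZT0 (10.2 ± 0.158) and LL at ZT6 (9.86 ± 0.589) came last, each overlapping its neighbour. Within a group the 4 livers lay close, with an SD of 0.10 on the log2 scale, lower than for all but 7.13% of tested genes (median 0.21).

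Angptl4 was highest in SL at ZT6 and lowest at ZT18, a 2.76-fold range, and in LL highest at ZT18 and lowest at ZT6, a 2.92-fold range. SL at ZT6 (128 ± 9.76 CPM) and LL at ZT18 (103 ± 29.3) led the order, followed by LL at ZT12 (83.5 ± 25.9) and SL at ZT0 (59.2 ± 13.1). SL at ZT12 (57.1 ± 6.75), LL at ZT0 (55.9 ± 15.4), SL at ZT18 (46.4 ± 3.54) and LL at ZT6 (35.3 ± 6.24) followed. Every neighbour in that order overlapped. The SD within groups was 0.30 on the log2 scale, so its livers differed more than those of Angptl2.

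Angptl6 group means ran between 7.63 ± 1.02 CPM in SL at ZT0 and 9.59 ± 2.62 CPM in LL at ZT12, and every neighbour in the order overlapped. Its SD within groups, 0.22 on the log2 scale, lay near the median gene, and the SD between group means was 0.10. For Angptl2 and Angptl4 the SD between group means was 0.39 and 0.61.

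A 24 h cosine through the 4 times gives Angptl2 a log2 amplitude of 0.49 ± 0.04 (SE) in SL and 0.49 ± 0.04 in LL. Its estimated peak fell at ZT 3.90 h under SL, against ZT 14.3 h under LL, a difference of -10.4 ± 0.395 h. For Angptl4 the amplitude was 0.73 ± 0.10 in SL and 0.81 ± 0.10 in LL, and the peak lay at 5.91 h under SL, against 16.6 h under LL, a difference of -10.7 ± 0.739 h. For both genes the amplitudes in SL and LL differed by less than the SE of the difference, and the peak times by many times its SE. As clock references, the estimated peak of Arntl was 13.2 h under SL, against 23.3 h under LL, and that of Dbp 1.22 h under SL, against 10.5 h under LL. The Angptl6 amplitude was below its SE in SL (0.06 ± 0.08) and 0.11 ± 0.08 in LL, so no peak time is given. With 4 times a sharp peak between samples or another period cannot be told apart from such a wave.

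Set against LL 12 h later, Angptl2 had 18.3 CPM in SL at ZT0 and 18.0 CPM in LL at ZT12, and 19.4 CPM in SL at ZT6 and 14.6 CPM in LL at ZT18. It had 12.8 CPM in SL at ZT12 and 10.2 CPM in LL at ZT0, and 10.9 CPM in SL at ZT18 and 9.86 CPM in LL at ZT6. SL was the higher in each of these pairs of means. Angptl4 had 59.2 CPM in SL at ZT0 and 83.5 CPM in LL at ZT12, and 128 CPM in SL at ZT6 and 103 CPM in LL at ZT18. It had 57.1 CPM in SL at ZT12 and 55.9 CPM in LL at ZT0, and 46.4 CPM in SL at ZT18 and 35.3 CPM in LL at ZT6. The interaction with LL moved by 12 h did not pass for Angptl2 (edgeR adjusted p = 0.288), Angptl4 (0.309) or Angptl6 (0.697), and passed for 75 tested genes (0.519%). Unadjusted p was 0.0106 for Angptl2 and 0.0130 for Angptl4, and a p that misses the threshold does not show equal rhythms.

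Averaged over the 4 times, Angptl2 was 1.17-fold higher in SL (log2 difference 0.23 ± 0.04, 95% interval 0.14 to 0.31). Its unadjusted p was 7.57e-06, the second smallest of 14456 genes, and its adjusted p was 0.0547, just over the threshold of 0.05. No tested gene passed this comparison with edgeR (0% of tested genes), and DESeq2 passed 6, Angptl2 among them with an adjusted p of 0.0127. Of the 14456 genes, 730 had an unadjusted edgeR p under 0.05, a level that chance alone passes in a share of 0.05 of tests. The mean difference was 0.06 ± 0.10 for Angptl4 and -0.02 ± 0.08 for Angptl6, neither passing (edgeR adjusted p = 1 for both).

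**Figure D3:**
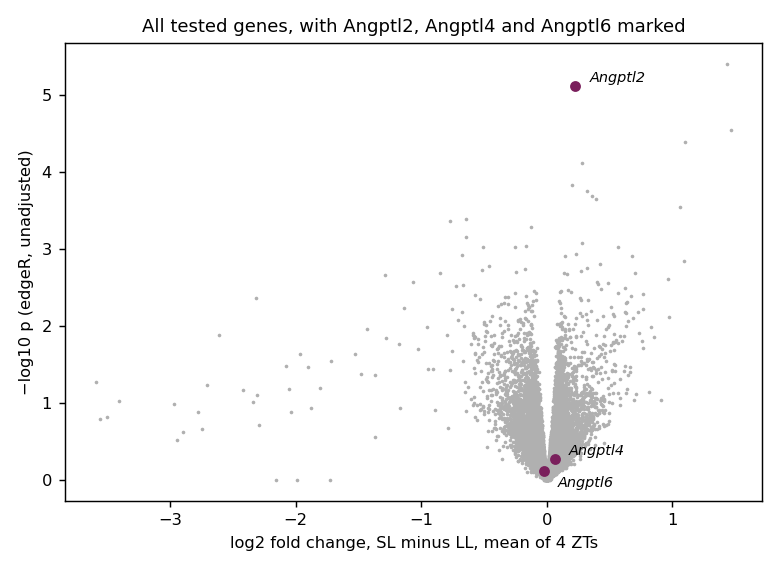
Minus log10 of the unadjusted edgeR p (y axis) against the mean log2 fold change of SL minus LL over the 4 times (x axis), 1 grey point per tested gene, with the 3 angiopoietin-like genes marked. Angptl2 stands high at a small change, 0.23, while Angptl4 (0.06) and Angptl6 (-0.02) lie near the base.

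The lipases and proteins that ANGPTL4 acts on or with were followed as a list of 15 tested genes. Their interaction of photoperiod and ZT passed in 5 of 15, beside 32.7% of all tested genes. Median log2 differences of the list lay between -0.01 and 0.03 over the 4 times, against -0.01 to 0.01 for all tested genes. Lpl, the gene of lipoprotein lipase, had 24.3, 18.8, 22.9 and 13.5 CPM in SL livers at ZT6, against 31.2, 26.8, 40.3 and 35.0 CPM in LL livers. At ZT18 it had 49.0, 55.9, 27.6 and 47.2 CPM in SL livers, against 17.7, 21.3, 42.6 and 25 CPM in LL livers. The groups did not overlap at ZT6 and did at ZT18, where LL replicate 3, the library with the highest muscle markers, was the high LL liver. Its log2 differences of -0.75 ± 0.24 at ZT6 and 0.76 ± 0.24 at ZT18 ran opposite to those of Angptl4 (edgeR adjusted p = 0.0339 and 0.0432), and its interaction passed (0.000395). Without LL ZT18 replicate 3 the ZT18 difference of Lpl was 1.07 with an adjusted p of 0.00430, and each of the single-time calls was lost without some other library.

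Apoa5, an apolipoprotein that promotes lipoprotein lipase activity, was higher in SL at ZT6 by 0.60 ± 0.10 and lower in SL at ZT18 with -0.55 ± 0.10 (log2; edgeR adjusted p = 3.76e-05 and 0.000206). These directions were those of Angptl4 at the same times. Lipc, the gene of hepatic lipase, had 147 ± 15.4 CPM in SL livers at ZT6, against 181 ± 22.3 CPM in LL livers (log2 difference -0.30 ± 0.10, edgeR adjusted p = 0.0401), a call that 5 of 9 alternative fits did not give. Gpihbp1, the capillary anchor of lipoprotein lipase, ran between 13.1 and 14.5 CPM over all group means, and its interaction had an edgeR adjusted p of 0.775. Of the 15 genes, 3 passed at ZT6 and 3 at ZT12, beside 15.3% and 12.4% of tested genes. Without LL ZT12 replicate 3 the list had 5 passing at ZT6 and 1 at ZT12. Counts over all tested genes moved too, from 1636 to 3053 at ZT6 and 1316 to 2341 at ZT12 as single libraries were left out.

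**Figure D4:**
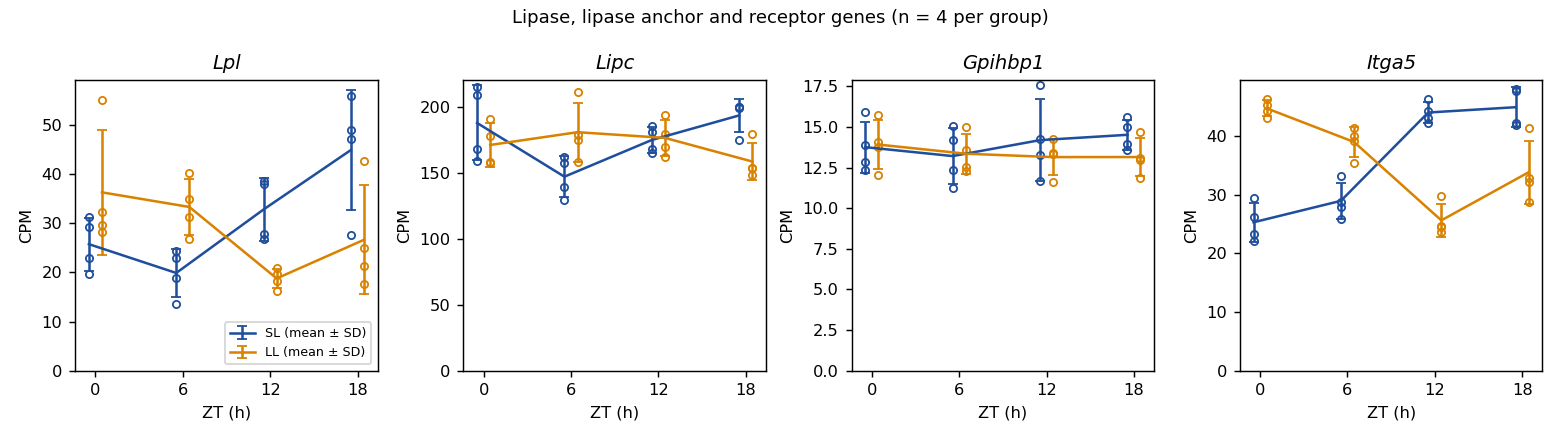
CPM (y axis, linear, from 0) against ZT in hours (x axis) for Lpl, Lipc, Gpihbp1 and Itga5, circles for the 4 livers of a group, lines and bars for mean and SD. Itga5 in SL lies at 25.3 CPM at ZT0 and 44.9 CPM at ZT18, and in LL at 44.7 and 33.8 CPM, while Gpihbp1 stays between 13.1 and 14.5 CPM in every group mean.

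Among 9 receptor genes reported for angiopoietin-like proteins and angiopoietins, the interaction passed in 6, beside 32.7% of tested genes. Itga5, the alpha 5 integrin chain through which ANGPTL2 signals, had 23.4, 29.5, 22 and 26.3 CPM in SL livers at ZT0, against 45.2, 44.2, 43.1 and 46.2 CPM in LL livers. At ZT12 it had 43.1, 42.2, 46.2 and 44.3 CPM in SL livers, against 24.6, 23.6, 24.5 and 29.8 CPM in LL livers. No SL and LL values overlapped at either time, and the direction was opposite to that of Angptl2. Over ZT0, ZT6, ZT12 and ZT18 its log2 differences were -0.83, -0.43, 0.78 and 0.41, all passing (edgeR adjusted p at most 0.00659). Its partner chain Itgb1 and the immune receptor gene Pirb did not pass in the interaction (edgeR adjusted p = 0.555 and 0.191). Tek and Cdh5, endothelial receptor and junction genes that also serve as endothelial markers, were higher in SL at ZT12 by 0.50 ± 0.12 and 0.59 ± 0.13 (edgeR adjusted p = 0.00592 and 0.00282). At that time 4 of 8 endothelial markers were higher in SL and 0 lower, beside 6.05% and 6.4% of tested genes. The summed markers at ZT12 were 318 to 360 CPM in SL livers and 208 to 311 CPM in LL livers, with no overlap, and the part of endothelial cell share in the values of Tek and Cdh5 was not tested. Of the other angiopoietin and angiopoietin-like genes on the list, 3 of 4 were tested and Angpt2 alone passed in the interaction (edgeR adjusted p = 0.0200), at a mean of 1.12 CPM, and without SL ZT12 replicate 4 it did not pass (0.126).

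Genes known to respond to the inducers of Angptl4 were read from 3 further lists. The part of any inducer in the Angptl4 values was not tested. Among all tested genes, 475 (3.29%) passed as higher in SL at ZT6 and lower at ZT18, so a shared order is not particular to these lists. Of 18 PPAR target genes, 8 were higher in SL at ZT6 and 0 lower, beside 6.9% and 8.38% of tested genes. At ZT18 1 was higher and 4 lower, beside 4.82% and 4.39%. The median log2 difference of the list was 0.41 at ZT6 and -0.16 at ZT18, against -0.01 and 0.01 for all tested genes. Acot1, an acyl-CoA thioesterase, had log2 differences of 2.68 ± 0.33 at ZT6 and -1.57 ± 0.31 at ZT18. Cpt1a, which admits fatty acids to mitochondria, had 0.73 ± 0.12 at ZT6, and all of these passed. At ZT0, where Angptl4 did not pass, Acot1 had -1.32 ± 0.35 and Cpt1a 0.56 ± 0.12, and at ZT12 Cpt1a had -0.54 ± 0.12, all passing. Without SL ZT0 replicate 1 or LL ZT0 replicate 1 the ZT0 value of Acot1 did not pass (adjusted p = 0.0607 and 0.0584). Ppara itself had log2 differences of 0.56 ± 0.23 at ZT6 and -0.41 ± 0.23 at ZT18 that did not pass. At ZT6 Ppara had 275, 287, 280 and 215 CPM in SL livers, against 190, 187, 157 and 180 CPM in LL livers, with no overlap. LL ZT12 replicate 3 had 75.3 CPM of Ppara, against 259, 309 and 283 CPM in its group mates. The groups share 1 fit, and the part of that liver in the missed calls was not tested. The interaction of photoperiod and ZT did pass for Ppara (edgeR adjusted p = 0.0369).

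Of 10 glucocorticoid-induced genes, 6 were higher in SL at ZT6 and 0 lower, beside 6.9% and 8.38% of tested genes. At ZT18 1 was higher and 5 lower, beside 4.82% and 4.39%. The median log2 difference was 1.82 at ZT6 and -0.99 at ZT18, against -0.01 and 0.01 for all tested genes. Fkbp5, a co-chaperone of the glucocorticoid receptor, had 93.8, 101, 87.9 and 133 CPM in SL livers at ZT6, against 21.2, 29.4, 17.4 and 14.3 CPM in LL livers. At ZT18 it had 19.1, 19.5, 26.2 and 15.3 CPM in SL livers, against 88.5, 76.9, 75.8 and 79.9 CPM in LL livers. Fkbp5 showed the order of Angptl4 at both times, with no overlap, and log2 differences of 2.34 ± 0.25 and -2.01 ± 0.25 (edgeR adjusted p = 7.51e-08 and 1.66e-06). At ZT0 and ZT12, where Angptl4 did not pass, Fkbp5 had log2 differences of 0.13 ± 0.24 and -0.09 ± 0.24 and did not pass either. Zbtb16 of the same list, a zinc finger regulator, did pass at ZT0, with -2.14 ± 0.35 (edgeR adjusted p = 5.38e-05). Per1, a clock gene that glucocorticoids also induce, had log2 differences of 2.29, 2.65, -2.40 and -1.80 in ZT order, the sign order of Angptl2.

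The list of hypoxia-inducible factor targets held 10 genes, of which 9 were tested. At ZT6 2 were higher and 1 lower in SL, beside 6.9% and 8.38% of tested genes. At ZT18 1 was higher and 3 lower, beside 4.82% and 4.39%. Bnip3, a mitophagy receptor, had log2 differences of 1.04 ± 0.10 at ZT6 and -0.92 ± 0.10 at ZT18, both passing. Egln3, an oxygen-sensing hydroxylase on the same list, had -0.62 ± 0.16 at ZT6 and 0.86 ± 0.16 at ZT18, both passing, so the list did not move as one. Vegfa, the vascular growth factor, had 0.54 ± 0.12 at ZT0 and -0.50 ± 0.12 at ZT12, both passing, and -0.12 and -0.15 at ZT6 and ZT18.

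**Figure D5:**
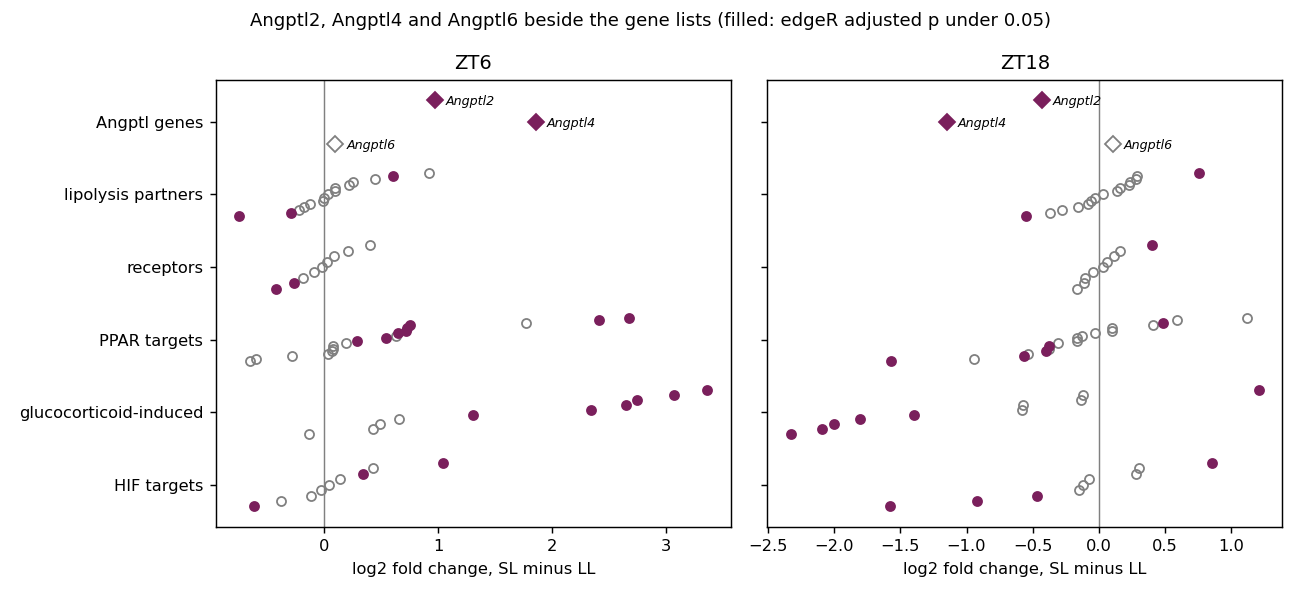
Log2 fold change of SL minus LL (x axis) at ZT6 and ZT18 for Angptl2, Angptl4 and Angptl6 (diamonds) and for each tested gene of 5 lists (circles, 1 row per list), filled where the edgeR adjusted p was under 0.05. At ZT6 the filled glucocorticoid-induced and PPAR target genes all lie to the right, as do Angptl2 (0.97) and Angptl4 (1.86), and at ZT18 5 of 6 and 4 of 5 filled genes of these lists lie to the left.

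Summed markers of other cell types were set beside the 3 genes. The 11 stellate cell and fibroblast markers were detected in every library and summed to 253 to 330 CPM in SL and 208 to 315 CPM in LL. At ZT6 1 was higher and 1 lower in SL, beside 6.9% and 8.38% of tested genes. At ZT0, ZT12 and ZT18 0 passed, beside 11%, 12.4% and 9.21% of tested genes. The sum of 8 adipocyte markers, 3885 to 6289 CPM in SL and 4028 to 6592 CPM in LL, consisted almost wholly of Car3, which hepatocytes also express. Hepatocyte markers summed to 106449 to 124239 CPM in SL and 100991 to 131460 CPM in LL. Of these 8 markers, 3 were higher in SL at ZT6 and 0 lower, beside 6.9% and 8.38% of tested genes. Kupffer cell and macrophage markers at ZT12 summed to 384 to 432 CPM in SL and 297 to 361 CPM in LL, with no overlap. Of these 10 markers, 1 was higher in SL at ZT12 and 0 lower, beside 6.05% and 6.4% of tested genes. Cholangiocyte markers summed to 30.9 to 48.4 CPM in SL and 33.2 to 63.8 CPM in LL, and mesothelial markers to 3.34 to 9.30 and 3.82 to 9.91 CPM. Skeletal muscle markers summed to 0.524 to 32.1 CPM in SL and 0.641 to 204 CPM in LL. Their part in the levels of the 3 genes was not tested.

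Over the 32 libraries the log2 levels of Angptl2 and Angptl4 had a Pearson r of 0.70, and 0.07 once each group's mean was removed. For Angptl2 with Angptl6 r was 0.08, and for Angptl4 with Angptl6 0.15. These values describe libraries that share photoperiod and hour, and no p is given.

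The genes whose log2 levels were most like Angptl2 over the 32 libraries were Stard5 (Pearson r = 0.915, Spearman rho = 0.835), Papss2 (r = 0.914, rho = 0.853), Osbpl5 (r = 0.908, rho = 0.876), Fam102a (r = 0.905, rho = 0.872) and Usp2 (r = 0.902, rho = 0.828). Stard5 and Osbpl5 encode lipid-binding proteins, Papss2 makes the sulfate donor of conjugation, and Usp2 is a deubiquitinase. For Angptl4 they were Tmc7 (r = 0.895, rho = 0.848), Nr1i2 (r = 0.882, rho = 0.821), Ddx5 (r = 0.867, rho = 0.827), Pex11a (r = 0.866, rho = 0.808) and Fmo2 (r = 0.865, rho = 0.838). Nr1i2 encodes the xenobiotic receptor PXR, Pex11a a peroxisome protein and Ddx5 an RNA helicase. Once group means were removed, r with Angptl2 was 0.19, -0.15, 0.43, 0.05 and -0.24 for its 5 genes in that order, and r with Angptl4 was 0.69, 0.35, 0.51, 0.36 and 0.28 for its 5.

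For Angptl6 the nearest genes were Timm13 (r = 0.761, rho = 0.593), Rabac1 (r = 0.746, rho = 0.559), Bola1 (r = 0.743, rho = 0.592), Mtln (r = 0.727, rho = 0.550) and Igfbp7 (r = 0.723, rho = 0.606). Timm13 and Mtln encode small mitochondrial proteins. Without LL ZT12 replicate 3 the Pearson r values were 0.616, 0.608, 0.619, 0.564 and 0.569, so part of the likeness rested on that library, while those for Angptl2 and Angptl4 moved by at most 0.01. Once group means were removed over all 32 libraries, r with Angptl6 lay between 0.75 and 0.79 for its 5 genes. Ranked by Spearman correlation, 2 of the 5 genes of Angptl2, 2 of Angptl4 and 1 of Angptl6 remained among the 5 nearest.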

How the data were processed

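Per the labels' protocols, polyadenylated RNA was made into libraries with a stranded mRNA kit. The submitters' processing notes name featureCounts 1.6.2, STAR 2.7.2b, bcl2fastq 2.20.0 and the build GRCm38 (mm10). The sources used here do not give the annotation, the strand setting or the handling of multiply matching reads. The authors deposited raw read counts per gene, not normalized, and log2 values of 13432 genes. The log2 table lay within 0.0213 of log2 CPM computed here and served for gene symbols and as an alternative.

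Counts were scaled by trimmed mean of M values, filtered with filterByExpr by group and tested with the quasi-likelihood test of edgeR 4.0.16 (R 4.3.3) in 1 fit of 8 group means over 32 libraries. P-values were adjusted over all 14456 tested genes by the Benjamini-Hochberg method at a threshold of 0.05. A prior count of 2 went into log2 CPM. Alternatives used DESeq2 1.42.0, limma 3.58.1, other scaling and filters, a replicate block and each library left out. The members and lists were chosen with earlier results of these data known. Named genes were, per list, at most 4 with the smallest interaction p, the fixed genes Lpl, Lipc, Gpihbp1, Ppara, Arntl and Dbp, genes overlapping a member and the 5 nearest by Pearson correlation. Itgb1, Pirb, Pdk4, Plin4, Fabp4 and Car3 were named after their values were seen. List counts include genes whose own values are not reported here. Counts of list genes and correlations without LL ZT12 replicate 3, and the alternatives for list genes, were added after seeing the data. The procedure was tested on simulated counts.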

Additional observations from a re-analysis of the deposited data

Results flagged for a closer look

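Angptl2 in LL at ZT6 held a liver apart from the others, replicate 2 at 10.7 CPM against 9.52 to 9.65 CPM in the other livers of the group. Its gap to the nearest liver was 0.89 of the group's whole range, above Dixon's critical value for 4 samples, and chance passes that value in about 1 of 20 groups, with 24 groups examined. That liver still lay below all SL livers at ZT6, where the lowest had 17.2 CPM.

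The SL to LL difference depended on the hour for Angptl2 (edgeR interaction adjusted p = 1.76e-12) and for Angptl4 (edgeR interaction adjusted p = 5.79e-09), with SL higher at ZT6 and lower at ZT18 in both.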

How the results depend on the processing

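Every edgeR call of Angptl2 and Angptl4 at single times, in the interaction and in time of day kept its direction and its side of the threshold under all alternatives run, and no Angptl6 test passed under any. The ZT12 difference of Angptl4 passed under DESeq2 (-0.5465, adjusted p = 0.0439), with no filter (-0.5646, 0.0164) and without LL ZT12 replicate 2 (adjusted p = 0.0332) or 4 (0.0308) or LL ZT18 replicate 3 (0.0481). Over the other alternatives that kept every library its adjusted p reached 0.1643, and without each library it ranged between -0.6604 and -0.3215, the last without LL ZT12 replicate 3 (adjusted p = 0.317). The mean difference of Angptl2 passed under DESeq2 (0.2266, adjusted p = 0.0127) and without SL ZT0 replicate 2 (0.0484), SL ZT6 replicate 3 (0.0203), LL ZT12 replicate 1 (0.0352) or LL ZT12 replicate 3 (0.0439), with a range of 0.2121 to 0.2396. With no filter the 12 h interaction of Angptl4 passed (0.0398). The causes were not tested.

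Values near 0 changed sign without single libraries. The ZT0 difference of Angptl4 did so without SL ZT0 replicate 2 or LL ZT0 replicate 2 or 4 (range -0.0589 to 0.2646), and the mean difference of Angptl6 without LL ZT6 replicate 4, LL ZT12 replicate 3 or LL ZT18 replicate 1 (range -0.04978 to 0.03156). Genes passing in the mean difference numbered 6 under DESeq2, 9 with no filter and 0 to 3 without each library. Those in the 12 h interaction numbered 228 under DESeq2, 250 with no filter and 55 to 150 without each library, 150 without LL ZT12 replicate 3. With only the groups compared in the fit, 723 genes passed at ZT12, against 1799, and 1655 in time of day in LL, against 2650. Both fits held LL ZT12 replicate 3 and fewer libraries than the main fit. The fits at ZT0, ZT6 and ZT18 held fewer libraries too. No alternative other than the omissions of single libraries passed fewer than 1283, 1817 and 1139 genes there, against 1596, 2208 and 1331. The cause of the drop was not tested.

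No shared deviation by replicate number was seen. Deviations of same-numbered SL and LL livers of the same ZT had a mean r of -0.038 over 16 pairs (-0.263 to 0.107). A mean near 0 cannot show that the livers were unpaired. With the number as a block the mean difference of Angptl2 was 0.2252 (adjusted p = 0.132) and the ZT12 difference of Angptl4 -0.5273 (0.0620), and no call on the 3 genes changed.

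Calls of Lpl depended on single libraries and on the fit. At ZT18 the call was lost without SL ZT6 replicate 2, any of SL ZT18 replicates 1, 2 and 4 or LL ZT18 replicates 1, 2 and 4 (adjusted p 0.0510 to 0.165), with the replicate block (0.0573) and with only the groups compared (0.0881), and at ZT6 without SL ZT6 replicate 2 or 4 or LL ZT6 replicate 3 or 4 (0.0766 to 0.126). The ZT6 call of Lipc was lost with DESeq2 size factors (adjusted p = 0.0548), no filter (0.104), the authors' log2 values (0.0510), only the groups compared (0.0800), the replicate block (0.0515) and without SL ZT6 replicate 1 or 3, LL ZT6 replicate 2, 3 or 4 or LL ZT18 replicate 4 (0.0514 to 0.194). With only the groups compared, Tek (0.149), Cdh5 (0.0812) and Vegfa (0.104) did not pass at ZT12. Angptl6 had 63 to 298 reads per library, and the share of counting error in its spread was not measured.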
